A study of Mus musculus with 6 samples.

Results

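A set of 33 genes around the tumour suppressor p53, made up of its regulators and the targets it switches on, was examined in mouse T-cell acute lymphoblastic leukaemia (T-ALL). They were chosen by name as a functional group, and 32 of the 33 were measured, out of 18193 genes on the arrays. Trp53, the gene that encodes p53, was not analysed here. Each gene was represented by the probe set, a group of array probes for one transcript, with the highest mean over the 6 arrays. Every leukaemia had the genotype Notch1[delta]E mycGFP: Notch1-deltaE is a truncated, constitutively active NOTCH1, and GFP reports the MYC protein. The cells were CD25+ splenocytes of C57BL/6 mice aged 12 weeks, taken from congenic recipients 4 weeks after transplant and sorted on mCherry and GFP. MycGFP negative and MycGFP positive cells gave 3 arrays each (numbers 1 to 3 in the labels), and 3 separately derived leukaemias stand behind them. No group without Notch1-deltaE and no normal thymus was included, so both arms share the same driver.

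p53 is a transcription factor that is held at a low level by the ubiquitin ligase MDM2 and its partner MDM4, and it is released by kinases that sense DNA damage and by the ARF protein. Once active it switches on genes for cell cycle arrest, cell death, DNA repair and its own restraint through Mdm2. High MYC activity is a known trigger of ARF and p53, and the locus that encodes ARF is often deleted in T-ALL.

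Of the 32 measured genes, limma called 1 as higher and 0 as lower in the MycGFP positive group, with an adjusted p under 0.05 in a two-sided test of 3 against 3 arrays. Over all 18193 genes 6.13% were called, 4.62% higher and 1.51% lower. Without adjustment, p was under 0.05 for 6 members with higher and 4 with lower levels, 10 in all, against 22.1% of all genes (14.7% higher and 7.35% lower). The groups did not overlap for 11 members, 6 with the positive arrays above and 5 below, against 28.1% of all genes (17.0% above and 11.2% below). These shares, 3.12% called, 31.2% at the unadjusted threshold and 34.4% not overlapping, rest on 32 genes. The median log2 difference (positive minus negative, the measure used throughout) was -0.02 over the members and 0.01 over all genes, and the members ranged from -1.55 for Gadd45a to 2.02 for Gtse1. Differences were positive for 15 members and negative for 17. The growth arrest genes had the lowest median, -0.43 over 11 genes, against 0.14 over 7 regulators, 0.01 over 9 cell death genes and 0.06 over 5 repair genes. In sorted bulk cells, fewer cells of a kind and less RNA per cell cannot be told apart. Myc itself was 2.58-fold higher (adjusted p = 0.0329).

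**Figure D1:**
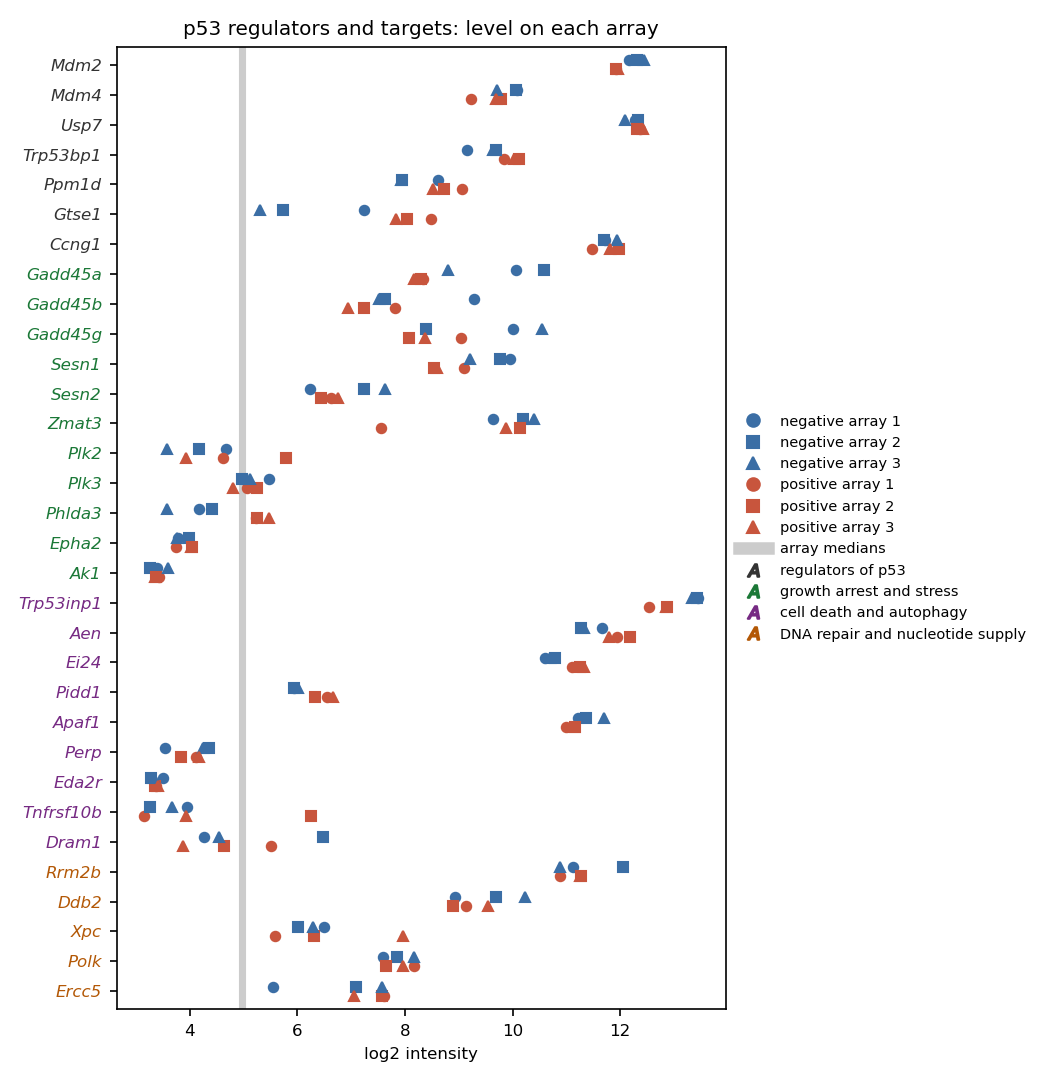
Level of each measured gene on every array as log2 intensity (horizontal axis), with negative arrays in blue, positive arrays in red and one symbol per array number; the grey band spans the array medians. Gadd45a, Sesn1 and Trp53inp1 have every positive array left of every negative one, Phlda3, Gtse1 and Ei24 the reverse, and 4 genes (Perp, Eda2r, Epha2 and Ak1) lie under the band on all 6 arrays.

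The arrays were alike in scale, with medians of 30.5 to 32.7, and Pearson's r across genes was 0.952 to 0.989 for all pairs. Gapdh's 3' to 5' probe set ratio, which rises as RNA degrades, spanned 1.58 to 1.89 in the negative group and 1.48 to 1.58 in the positive group. All 10 measured T cell leukaemia markers had mean levels above the array medians, summing to 84951 to 90263 in the negative group and 65070 to 76103 in the positive group, and Cd4 was the one called, as lower. The summed level of 8 myeloid markers was 10443 on negative array 2 and 2650 on positive array 2, against 191 to 1030 on the other 4 arrays. B cell (4 genes), erythroid (5), NK cell (4), platelet (5) and stroma (6) markers had no called gene, no marker was listed at 0, and all 5 erythroid markers lay under the array medians on average. Of 13 proliferation markers, 3 were called higher (Mcm5, Pcna and Ung), 11 had all positive arrays above all negative ones, and their sum spanned 10349 to 29822 in the negative group and 38829 to 46312 in the positive group. Their part in the p53 gene values was not tested.

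The sequences just before the transcription starts are shown for 6 members that the results below turn on: Mdm2, Sesn1, Gadd45a, Ei24 and Aen, which hold a match to the p53 half-site there and passed the unadjusted threshold, and Phlda3, the called gene, which holds none. The half-site is the 10-base motif that p53 binds in pairs, a run of purines, then C, A or T, A or T, G and a run of pyrimidines, and it reads alike on both strands. Each line is 250 bases, 5′ to 3′ on the strand of the gene, ending at the base before the start in RefSeq (build GRCm38.p6), with half-site matches in capitals and, in Aen, also CACGTG, a motif described below the sequences.
Mdm2 (chr10:117710759-117711008, minus strand): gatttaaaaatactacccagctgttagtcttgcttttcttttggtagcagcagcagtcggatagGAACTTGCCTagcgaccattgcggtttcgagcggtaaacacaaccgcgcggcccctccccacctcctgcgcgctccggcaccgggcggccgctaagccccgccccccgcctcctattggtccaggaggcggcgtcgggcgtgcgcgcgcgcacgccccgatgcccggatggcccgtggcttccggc
Sesn1 (chr10:41887189-41887438, plus strand): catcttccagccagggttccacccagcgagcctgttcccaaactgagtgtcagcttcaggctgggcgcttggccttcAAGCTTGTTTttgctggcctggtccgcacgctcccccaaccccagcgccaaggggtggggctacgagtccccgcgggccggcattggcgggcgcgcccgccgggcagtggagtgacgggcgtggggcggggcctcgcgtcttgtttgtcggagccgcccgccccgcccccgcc
Gadd45a (chr6:67037408-67037657, minus strand): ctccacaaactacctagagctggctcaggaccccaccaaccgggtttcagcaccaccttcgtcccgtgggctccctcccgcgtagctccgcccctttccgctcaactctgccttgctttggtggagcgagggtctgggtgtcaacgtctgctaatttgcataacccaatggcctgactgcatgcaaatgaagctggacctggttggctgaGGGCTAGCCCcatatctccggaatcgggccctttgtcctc
Ei24 (chr9:36797335-36797584, minus strand): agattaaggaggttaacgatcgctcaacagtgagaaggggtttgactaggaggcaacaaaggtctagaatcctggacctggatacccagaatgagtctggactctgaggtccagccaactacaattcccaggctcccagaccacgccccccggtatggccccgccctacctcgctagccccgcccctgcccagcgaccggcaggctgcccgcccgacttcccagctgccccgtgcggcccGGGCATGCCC
Aen (chr7:78895808-78896057, plus strand): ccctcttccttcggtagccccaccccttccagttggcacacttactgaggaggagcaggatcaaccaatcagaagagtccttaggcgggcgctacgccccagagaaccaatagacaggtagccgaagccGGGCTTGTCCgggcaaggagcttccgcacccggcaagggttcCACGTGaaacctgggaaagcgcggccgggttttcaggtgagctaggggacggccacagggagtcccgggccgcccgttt
Phlda3 (chr1:135765835-135766084, plus strand): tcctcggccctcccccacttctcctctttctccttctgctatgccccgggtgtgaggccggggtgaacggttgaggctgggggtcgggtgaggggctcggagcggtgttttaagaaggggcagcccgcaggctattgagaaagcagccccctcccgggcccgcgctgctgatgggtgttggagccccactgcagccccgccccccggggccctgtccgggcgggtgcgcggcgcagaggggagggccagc
The Ei24 match, GGGCATGCCC, ends at the base next to the start, and the Gadd45a match, GGGCTAGCCC, lies 40 to 31 bases before it. The Mdm2 match, GAACTTGCCT, lies 186 to 177 bases and the Sesn1 match, AAGCTTGTTT, 173 to 164 bases before the start. Of 25 measured members with such windows in the table, 8 held a half-site match: these 5, Ccng1, Polk and Ppm1d. Over all 32851 windows of this length 7.13% held one, and 8 of the 33 windows of members did. A pair of half-sites with at most 13 bases between them was in 0 of the members' windows and in 0.0639% of all. Only exact matches were counted, so pairs with a mismatch and sites outside these windows were not searched for. The motif CACGTG is bound by MYC and its partner MAX and is the same on both strands. It was in 3 of the 25 genes (Aen, Gadd45b and Gadd45g), in 3 of the 33 windows of members and in 6.02% of all windows. In the Aen window both motifs were found, GGGCTTGTCC at 121 to 112 and CACGTG at 79 to 74 bases before the start, with no overlap. The genes with a half-site match differed in direction, with values given below, and a match is a description of these letters only.

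Among the regulators, Mdm2, which encodes the ligase that degrades p53 and is itself a p53 target, had intensities of 4615, 5105 and 5558 on negative arrays 1 to 3 and 3887, 3892 and 3971 on positive arrays 1 to 3. All positive values lay below all negative ones, and the positive arrays were close together. That is 1.30-fold lower, or -0.37 on the log2 scale (SE 0.13), and it did not pass (limma, adjusted p = 0.148). The 2 other Mdm2 probe sets differed the same way, by -0.39 and -0.79. Mdm4, which encodes the p53-binding partner of MDM2, read 1088, 1068 and 839 on negative and 598, 886 and 829 on positive arrays, so that the groups overlapped. Its log2 difference was -0.38, with a 95% interval (unadjusted, for a single gene) of -0.88 to 0.11.

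Usp7, a deubiquitinase gene whose product stabilises MDM2 and p53, read 4983, 5122 and 4349 on negative and 5288, 5110 and 5473 on positive arrays. Its log2 difference was 0.14, with a 95% interval of -0.17 to 0.45. Its 7 probe sets did not move alike, since 3 of the other 6 lay at 0.01 to 0.02, one at 0.12, one at -1.21 and one at 1.14, and none of them passed over all named probe sets. Trp53bp1, whose product 53BP1 binds p53 and guides repair of broken DNA, read 568, 828 and 796 on negative and 923, 1108 and 1039 on positive arrays. Every positive array lay above every negative one, by 0.50 on the log2 scale (SE 0.19), and limma's adjusted p was 0.187.

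Ppm1d, which encodes the phosphatase WIP1 that turns off the p53 response, read 394, 247 and 243 on negative and 537, 423 and 367 on positive arrays. Negative array 1 lay above positive array 3, so the groups overlapped, but within each array number the positive value was the higher one, by 0.45, 0.77 and 0.59. Its log2 difference was 0.61 (95% interval -0.0016 to 1.21, adjusted p = 0.228). The other Ppm1d probe set read 127, 325 and 114 on negative and 276, 160 and 180 on positive arrays. In that set the positive value was the lower one for number 2, and the log2 difference was 0.25. Ccng1, the cyclin G1 gene and a classical p53 target, read 3370, 3336 and 3923 on negative and 2851, 4051 and 3596 on positive arrays. The difference was -0.03, with a 95% interval of -0.45 to 0.39, although Ccng1 is one of the genes with a half-site match.

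Gtse1, a gene of the G2 and S phases whose product binds p53 and carries it out of the nucleus, had the highest difference of the group. Its intensity was 152, 53.4 and 39.8 on negative and 356, 262 and 228 on positive arrays, so all positive values were above all negative ones and negative array 1 stood above the other negative arrays. The positive level was 4.04-fold higher, or 2.02 on the log2 scale (SE 0.51), and it did not pass without a block (limma, adjusted p = 0.0755). It passed with the array number as a block (0.0373), without negative array 1 (0.0173) without both arrays numbered 1 (0.0430) and when genes with a mean below the median were left out (0.0472). Within numbers the differences were 1.23, 2.29 and 2.52. The mean log2 level of the 13 proliferation markers ran in the same order on the negative arrays, at 10.3, 8.89 and 8.37, and lay at 11.3, 11.1 and 11.04 on the positive arrays. The order of Gtse1 was also the same on the positive arrays, and the part of cell cycle content in its value was not tested.

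**Figure D2:**
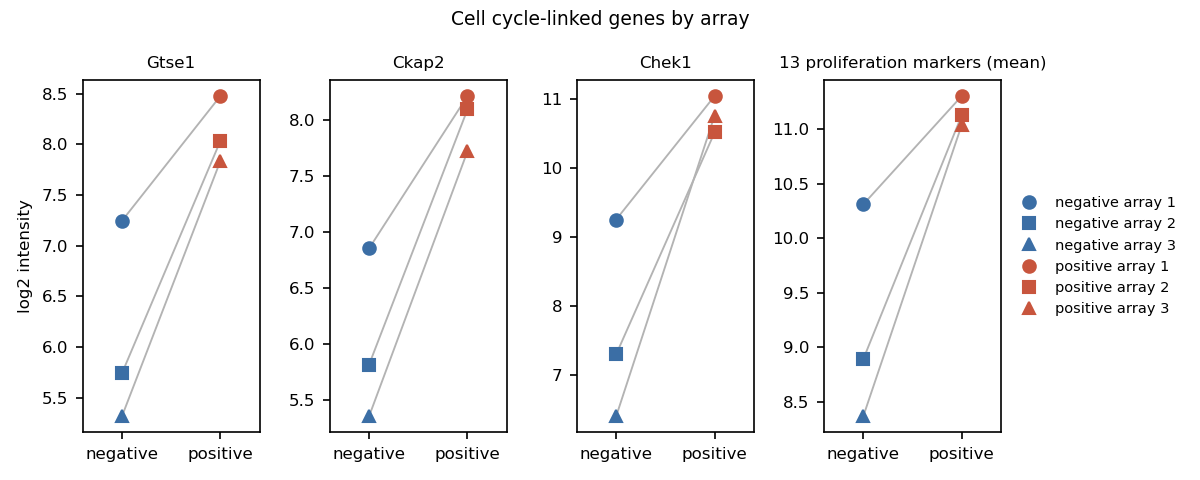
Log2 intensity of Gtse1, Ckap2 and Chek1 and the mean of 13 proliferation markers on each array (vertical axes differ), with grey lines joining arrays of the same number. In every panel each positive array lies above all negative arrays and negative array 1 is the highest of the negative arrays.

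The growth arrest genes held the largest negative values. Gadd45a, whose product slows the cell cycle and promotes repair after DNA damage, read 1077, 1542 and 444 on negative and 325, 314 and 288 on positive arrays. The positive arrays were tightly grouped below the widely spread negative ones. The level was 2.93-fold lower, or -1.55 on the log2 scale (SE 0.45; limma, adjusted p = 0.103), and it passed only without negative array 3 (-2.06, adjusted p = 0.0222). Gadd45b and Gadd45g, paralogs induced by stress and cytokines, had log2 differences of -0.81 (adjusted p = 0.447) and -1.15 (0.322). Gadd45b read 627, 198 and 183 on negative and 226, 150 and 124 on positive arrays. Gadd45g read 1026, 337 and 1506 on negative and 530, 270 and 330 on positive arrays. Both overlapped between the groups on the probe sets used. Another Gadd45b set did not, at 326, 136 and 135 on negative and 103, 90.1 and 72.4 on positive arrays (-1.05). A further one overlapped, at -0.50. On the sets used, the positive array was lower within each of the 3 numbers for all 3 paralogs. That held for 3878 of all 18193 genes. The 3 paralogs were high on different negative arrays. Without negative array 1 the Gadd45b difference was -0.24. That of Gadd45g was -0.70 without negative array 3 and -1.78 without negative array 2.

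Sesn1, which encodes a sestrin that restrains mTORC1 and oxidative damage, read 991, 873 and 594 on negative and 548, 375 and 385 on positive arrays. All positive values lay below the negative ones, by -0.90 on the log2 scale (SE 0.25; limma, adjusted p = 0.0978). All 4 Sesn1 probe sets had groups that did not overlap, at differences of -0.90, -0.86, -1.21 and -2.30. The last of them read 265, 356 and 267 on negative and 70.0, 51.0 and 58.9 on positive arrays. When every named probe set was tested on its own, where 6.92% of 34945 were called, the latter 2 passed (adjusted p = 0.0271 and 0.0100). With the mean of its probe sets Sesn1 fell by 1.32 (adjusted p = 0.0158). Without probe sets whose names end in _x_at or _s_at, as that of the Sesn1 set used does, it fell by 1.21 (0.0293). Sesn2, the stress-induced sestrin gene, read 75.6, 152 and 198 on negative and 99.4, 87.2 and 107 on positive arrays and overlapped (log2 difference -0.43, 95% interval -1.30 to 0.44). Its difference was -0.13 without negative array 3 and -0.83 without negative array 1. The other Sesn2 probe set was dimmer and went the other way, at 0.25.

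Phlda3, which encodes a p53-induced inhibitor of AKT, was the called member. It read 18.1, 21.4 and 11.9 on negative and 37.7, 38.2 and 44.7 on positive arrays, so the negative arrays lay under the array medians and the positive ones above them. It rose 2.40-fold, or by 1.26 on the log2 scale (SE 0.24; limma, adjusted p = 0.0381). No detection calls were used, so the negative level was not shown to be above background and the size of this ratio is not fixed. The call was lost with the array number as a block (0.0602) and after each array's median over the genes was subtracted (0.0549). It was also lost without negative array 1 (0.0663) or 2 (0.0652) or positive array 1 (0.0964), 2 (0.119) or 3 (0.118). Phlda3 has 1 probe set, so no other set can be compared.

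Zmat3, which encodes an RNA-binding p53 target that slows growth, read 797, 1167 and 1344 on negative and 188, 1123 and 939 on positive arrays. Positive array 1 alone was far below the rest, and without it the log2 difference of -0.89 was -0.07. Plk2 and Plk3, polo-like kinase genes of the stress response, were dim, at 11.9 to 55.5 and 27.8 to 44.7 over the 6 arrays, with differences of 0.64 (95% interval -0.62 to 1.90) and -0.16 (-0.63 to 0.31). The Plk2 difference was 0.14 without positive array 2, 0.36 without negative array 3 and 1.07 without positive array 3, and that of Plk3 was -0.02 without negative array 1. Epha2, an ephrin receptor gene, and Ak1, an adenylate kinase gene, stayed under the array medians on all arrays, at 13.5 to 16.4 and 9.58 to 12.1, with differences of 0.09 and -0.03.

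**Figure D3:**
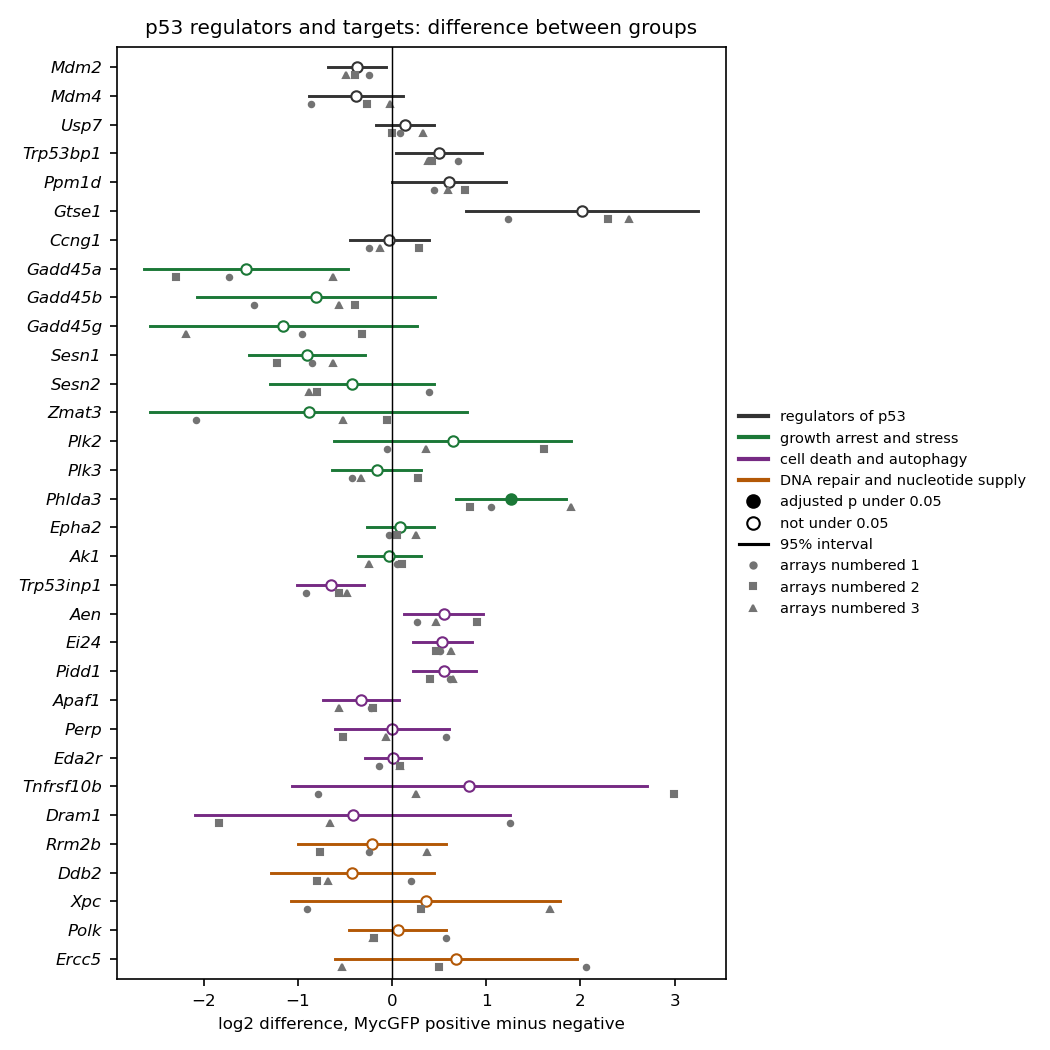
Log2 difference of each gene, MycGFP positive minus negative (horizontal axis), with its unadjusted 95% interval, coloured by role, filled where the adjusted p was under 0.05; small grey symbols give the difference within each array number. Only Phlda3 is filled, and the 3 Gadd45 paralogs and Sesn1 have all 3 grey symbols left of 0.

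Among the cell death genes, Trp53inp1, which encodes a partner of p53 in stress-induced death and autophagy, had the smallest p of those with negative differences. It read 11159, 11085 and 10308 on negative and 5903, 7501 and 7387 on positive arrays, with no overlap. This was 1.57-fold lower, or -0.65 on the log2 scale (SE 0.14), just short of the threshold (limma, adjusted p = 0.0549). Its second probe set read 4537, 4219 and 3769 on negative and 1331, 1924 and 2221 on positive arrays. That set, 2.33-fold lower, passed when probe sets were tested on their own (adjusted p = 0.0304). The gene also passed with the mean of both sets (-0.94, adjusted p = 0.0281) and with a trended, robust variance (0.0297). With each array's median over the genes subtracted it passed too (-0.80, 0.0343).

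Aen, an exonuclease gene of p53-driven cell death, went the other way. It read 3247, 2478 and 2562 on negative and 3911, 4634 and 3543 on positive arrays, all positive values being higher. That is 1.46-fold higher, or 0.55 on the log2 scale (SE 0.17; limma, adjusted p = 0.130). A second probe set read 137, 132 and 132 on negative and 354, 279 and 318 on positive arrays and passed on its own at a difference of 1.24 (adjusted p = 0.0133), as did another at 1.96 (0.0268). With the mean of its 4 probe sets Aen rose by 1.09 (adjusted p = 0.0219). Trp53inp1 and Aen therefore had opposite signs in every probe set, 2 for the former and 4 for the latter, although one set of Aen overlapped between groups.

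**Figure D4:**
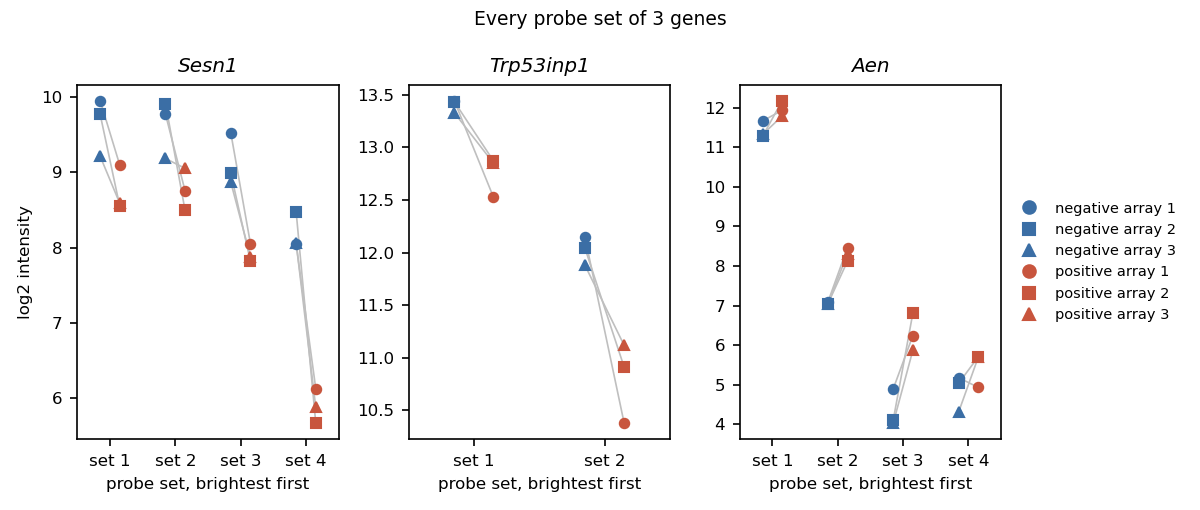
Log2 intensity of every probe set of Sesn1, Trp53inp1 and Aen on each array (vertical axes differ), with lines joining arrays of one number. The positive arrays in red lie below the negative ones in blue in all 6 sets of Sesn1 and Trp53inp1 and above them in 3 of the 4 sets of Aen.

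Ei24, an endoplasmic reticulum gene of cell death and autophagy, read 1551, 1775 and 1662 on negative and 2205, 2452 and 2556 on positive arrays. The groups did not overlap, and the positive ones were higher by 0.53 on the log2 scale (SE 0.13; limma, adjusted p = 0.0694). Pidd1, which encodes the scaffold that activates caspase 2, read 61.0, 61.2 and 64.9 on negative and 93.7, 80.9 and 102 on positive arrays. It too did not overlap, at 0.56 with an SE of 0.14 (adjusted p = 0.0710). Apaf1, the apoptosome gene, read 2389, 2625 and 3345 on negative and 2040, 2282 and 2257 on positive arrays. All its positive values were lower, at -0.33 with an SE of 0.16 (adjusted p = 0.314), and its other probe set gave 0.22.

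The remaining death genes were dim. Perp, a membrane gene of p53-dependent death, and Eda2r, a receptor gene of the tumour necrosis factor family, stayed under the array medians on all 6 arrays, at 11.6 to 20.5 and 9.71 to 11.4. Their differences were -0.01 and 0.01. Tnfrsf10b, the mouse death receptor for TRAIL, was at 8.92 to 15.4 on 5 arrays and at 76.8 on positive array 2. Without that array its difference of 0.82 became -0.09. The other Tnfrsf10b probe set read 14.1, 13.1 and 13.8 on negative and 18.9, 18.0 and 14.1 on positive arrays. In that set positive array 2 did not stand apart. Dram1, a p53 target of autophagy, was at 89.5 on negative array 2 and at 14.7 to 45.7 on the others. The high Dram1 value fell on negative array 2 and the high Tnfrsf10b value on positive array 2. These arrays had the highest myeloid marker sums, 10443 and 2650. However, Tnfrsf10b read 9.64 on negative array 2 and Dram1 24.9 on positive array 2. A link was not tested.

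On the probe sets used, none of the 5 repair and nucleotide genes separated the groups. Of all genes 28.1% did, and 5 genes are too few for a comparison with that share. Rrm2b, the p53-induced subunit of ribonucleotide reductase, read 2244, 4243 and 1897 on negative and 1896, 2488 and 2457 on positive arrays. Its log2 difference was -0.21 (95% interval -0.996 to 0.57). Dimmer Rrm2b probe sets gave -0.42, -0.21 and 0.72, and in the last of these the groups did not overlap. Ddb2, which recognises ultraviolet damage, read 488, 826 and 1197 on negative and 563, 475 and 747 on positive arrays, at -0.43 (-1.29 to 0.44), which was -0.12 without negative array 3 and -0.77 without negative array 1. Xpc, which also recognises damaged bases, read 89.8, 64.5 and 78.4 on negative and 47.9, 79.7 and 250.02 on positive arrays, so that positive array 3 stood apart. Polk, a translesion polymerase gene, and Ercc5, a nuclease gene of excision repair, had differences of 0.06 (-0.45 to 0.57) and 0.68 (-0.60 to 1.96), the latter 0.08 without negative array 1. Within array numbers none of these genes kept one sign in all 3 on the probe sets used. Of all 18193 genes, 4719 were higher and 3878 lower in all 3.

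Of the 32 members the sign was the same within all 3 array numbers for 16, of which 7 were higher and 9 lower. Among all 18193 genes 4719 were higher and 3878 lower in this sense, so the members' share was near that of all genes. With the number as a block Gtse1 was the called member in place of Phlda3, where 7.70% of all genes were called, 5.75% higher and 1.95% lower.

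The other genes of the p53 pathway were taken from a list chosen by function, with earlier results of these data known. Of its 57 genes 53 were measured, and 15.1% of these were called, 6 higher and 2 lower. Over all genes 6.13% were called, 4.62% higher and 1.51% lower. The shares rest on unlike levels, since 4 of the 53 had a mean below the array medians, against 7626 of all 18193 genes. Fas, the death receptor gene and a p53 target, fell 5.03-fold. It read 1167, 1122 and 655 on negative and 274, 139 and 178 on positive arrays, with no overlap (log2 difference -2.33, SE 0.34, limma, adjusted p = 0.0221). Bcl6, a repressor gene that p53 can induce and that dampens Trp53, fell 3.47-fold, from 4646 ± 863 to 1336 ± 239 (SD, n = 3). Siva1, a death adaptor gene, rose 3.74-fold, from 186 ± 14.4 to 697 ± 82.2, and Tigar, which limits glycolysis, rose 2.27-fold, from 188 ± 19.7 to 440 ± 141 (SD, n = 3 each). Ckap2, a spindle gene, rose 4.00-fold, from 71.0 ± 39.5 to 261 ± 44.5 (SD, n = 3), and on the negative arrays it ran in the order of the proliferation markers, at 116, 56.4 and 40.9.

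The remaining 3 called genes act upstream of p53 and all rose. Atr, the kinase gene of replication stress, read 118, 117 and 125 on negative and 296, 346 and 213 on positive arrays, and rose 2.34-fold (limma, adjusted p = 0.0280). Prkdc, the DNA-dependent protein kinase gene, rose 1.93-fold, and Usp10, whose product removes ubiquitin from p53, rose 2.35-fold. Atm, the kinase gene for double-strand breaks, read 346, 469 and 421 on negative and 648, 881 and 622 on positive arrays but did not pass (adjusted p = 0.0739). Of all 13 measured genes that signal to p53, 7 had positive and 2 negative differences with an unadjusted p under 0.05, which held for 14.7% and 7.35% of all genes. With the number as a block 7 of the 53 were higher and 4 lower: Chek1, Btg2 and Fbxw7, named after their values were seen, were added, at log2 differences of 3.12, -1.35 and -1.03. Leaving out one array gave 5 higher and 2 lower when negative array 1 was dropped, 1 and 0 for negative array 2, and 4 and 3 for negative array 3. For positive arrays 1, 2 and 3 it gave 1 and 2, 0 and 0, and 2 and 1.

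Atm aside, 4 further genes were to be named whatever their values, Cdkn1a, Bbc3, Pmaip1 and Cdkn2a, and none of them passed. Cdkn1a, which encodes the CDK inhibitor p21, was dim at 21.2, 13.3 and 28.9 on negative and 22.2, 76.4 and 33.4 on positive arrays, with a log2 difference of 0.93 (95% interval -0.30 to 2.17). Positive array 2 stood apart, and without it the difference was 0.44. The summed myeloid markers were high on that array (2650) and higher on negative array 2 (10443), where Cdkn1a read 13.3. A link was not tested. Bbc3, the gene for the death inducer PUMA, read 178, 193 and 84.4 on negative and 88.5, 80.0 and 57.1 on positive arrays, which overlapped, at -0.95 (limma, adjusted p = 0.194). It passed without negative array 3, at -1.32 (0.0474). Pmaip1, the gene for the death inducer NOXA, went the other way, at 598, 345 and 716 against 973, 764 and 890, with no overlap and a difference of 0.72 (adjusted p = 0.216). Cdkn2a, the gene that encodes ARF and the CDK inhibitor p16, read 52.4, 38.4 and 36.0 on negative and 60.4, 126 and 64.3 on positive arrays. All positive values were higher, at 0.92 with an SE of 0.32 (adjusted p = 0.165), and these probes do not tell its products apart here. Bax was not analysed here.

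**Figure D5:**
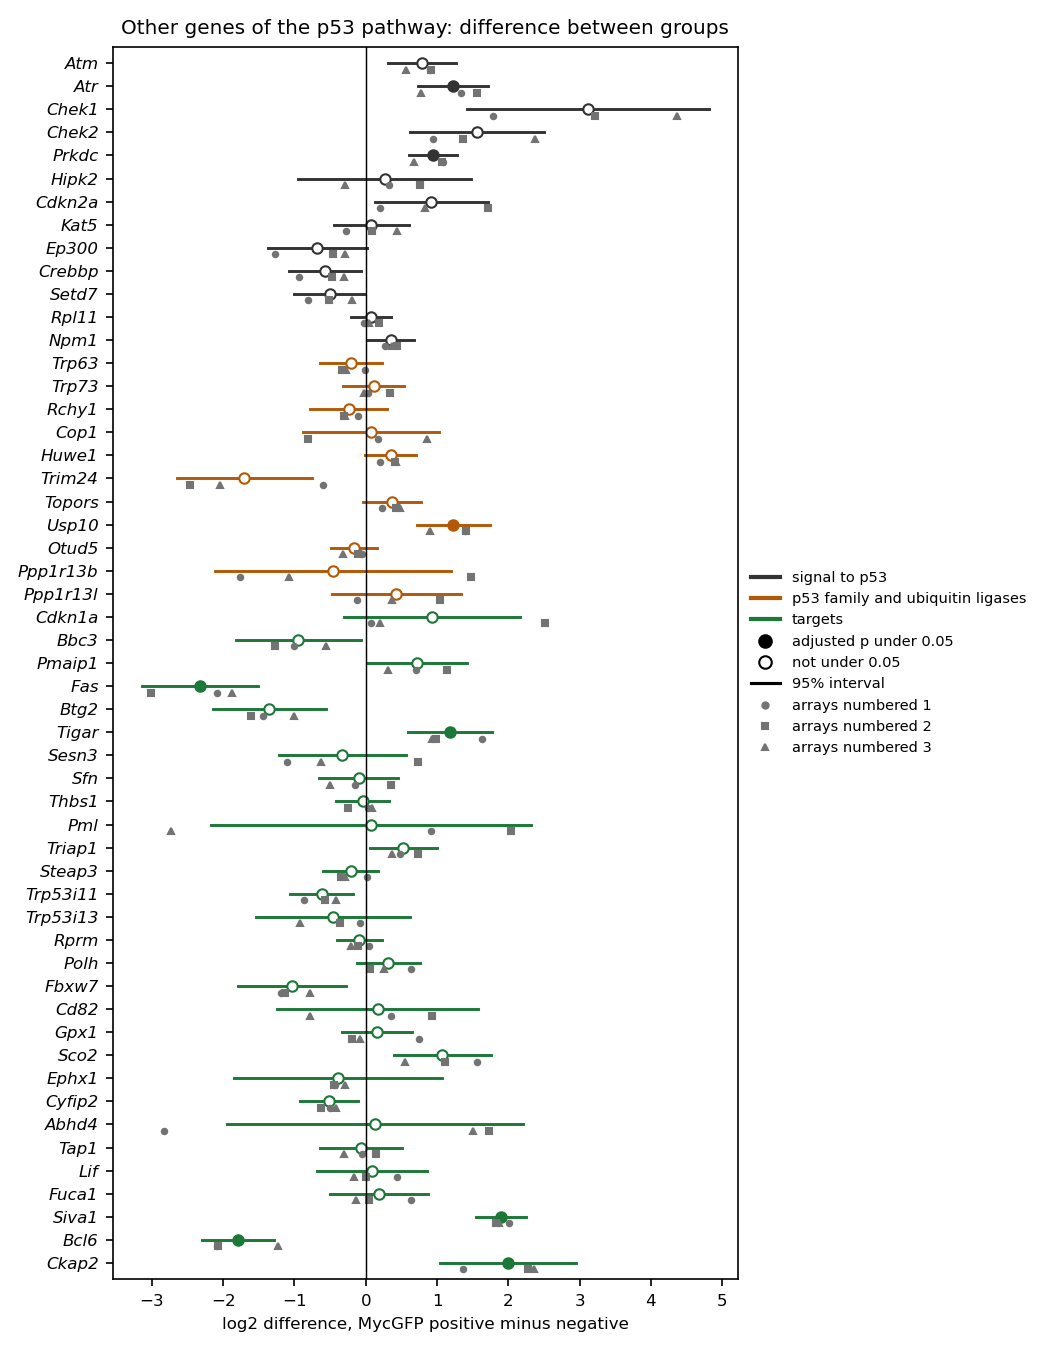
Log2 difference of the 53 other measured p53 pathway genes, MycGFP positive minus negative (horizontal axis), with unadjusted 95% intervals, filled where the adjusted p was under 0.05; grey symbols give the difference within each array number. Fas and Bcl6 are filled left of 0, and Atr, Prkdc, Usp10, Tigar, Siva1 and Ckap2 right of 0.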

How the data were processed

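RNA of sorted leukaemia cells (5 ng per sample, amplified with the Ovation system, per the labels' protocols) was measured on 6 Affymetrix arrays. The authors deposited linear intensities, 1 per probe set, for which the submitters' processing notes name RMA; its version and a genome build are not given in the sources used here. From them log2 intensity was computed. Because RMA gives all arrays a common distribution, a general rise or fall in RNA content would not show, and no detection calls were used, so levels near the array medians may be background. Amplification adds noise to dim genes.

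Of 45101 probe sets, 34945 had 1 symbol, 932 several, 9160 none and 64 were controls; symbols were updated by Entrez identifier from RefSeq (GRCm38.p6), where 34741 matched. The test was limma 3.58.1 under R 4.3.3 (lmFit and eBayes, two-sided, no covariate; 4 residual and 2.17 prior degrees of freedom), adjusted by Benjamini-Hochberg over 18193 genes at 0.05, after a test on simulated data. SEs are limma's moderated ones, and folds are ratios of geometric means. The members and lists were chosen with earlier results of these data known; all measured members are named, and of the other pathway genes those called plus Cdkn1a, Bax, Bbc3, Pmaip1, Cdkn2a and Atm. Every probe set tested on its own and both arrays of a number left out were alternatives added after seeing the data; the others were planned.

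The array numbers were taken to pair the arrays: deviations from the group means correlated across genes at r = 0.38, 0.21 and 0.39 for the same number and at -0.32 to -0.03 for different numbers. The labels do not state which leukaemia a number stands for. The main fit had no block, so its p-values do not use this pairing. They set each difference between groups against the spread of these samples within groups. The number of arrays limits the precision.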

Additional observations from a re-analysis of the deposited data

How the results depend on the processing

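The members' counts of 1 called higher and 0 lower became 2 and 2 with the mean of a gene's probe sets. They became 0 and 1 with array medians subtracted. The counts were 1 and 1 without _x_at and _s_at probe sets and 1 and 1 with a trended, robust variance. The members' median was -0.17 with array medians subtracted, which moved the median of all genes from 0.01 to -0.14. The medians subtracted were taken over the genes, whereas the array medians of 30.5 to 32.7 given above were over all probe sets. When dim genes were left out, where 23 members were tested, the members' median was -0.21 and that of all genes tested was 0.14. All genes called higher were 502 with array medians subtracted and 510 after quantile normalization, against 840, and those called lower 381 and 383, against 275. The other pathway genes called lower were 4 with the replicate block, with the mean of probe sets and without dim genes, and 1 was called higher after quantile normalization. Leaving out an array or both arrays of a number gave 0 to 1 members in either direction, medians of -0.054 to 0.091, 0 to 862 genes higher and 0 to 238 lower, and 0 to 5 and 0 to 3 other pathway genes. Without positive array 2 limma called 0 genes, while 2209 positive and 976 negative differences had an unadjusted p under 0.05.

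Differences changed sign with the mean of probe sets for Ccng1 (0.20) and Polk (-0.072), with array medians subtracted for Eda2r (-0.14), Polk (-0.091), Epha2 (-0.061) and Usp7 (-0.012), and after quantile normalization for Perp (0.026) and Polk (-0.24). With arrays left out, Ak1 ranged from -0.11 to 0.080, Ccng1 from -0.18 to 0.11, Dram1 from -1.25 to 0.30, Eda2r from -0.039 to 0.083 and Ercc5 from -0.015 to 1.28. Perp ranged from -0.30 to 0.25, Polk from -0.20 to 0.21, Rrm2b from -0.51 to 0.13, Tnfrsf10b from -0.27 to 1.62 and Xpc from -0.32 to 0.99. The cause of these changes was not tested. The levels of 4 members lay under the array medians on all 6 arrays and were not shown to be above background.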
